A study of Ovis aries with 9 samples.

Results

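The cytosolic ribosomal protein genes were followed in cultured ovine granulosa cells (GCs) given no, moderate or very high glucose. Members were chosen by symbol: RPL or RPS with a number and an optional suffix (as in RPL23A or RPL26L1), RPLP with a digit, or RPSA. The kinases whose symbols start with RPS6K were left out. Of the 39157 genes in the deposited gene table, 31 fitted this rule, 14 of the large subunit and 17 of the small subunit, and each symbol had 1 row. RefSeq lists 79 protein-coding sheep symbols of this form (assembly ARS-UI_Ramb_v3.0), so the 31 are a part of the family, and the others were not analysed here.

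Granulosa cells are the somatic cells that surround the oocyte and make its steroid hormones. GCs of thin-tailed Han ewes, aged 1 year per the labels, were collected from follicles of many ovaries, pooled and plated, kept for 8 h without glucose and serum, and then given glucose for 24 h. CON received 0 mM glucose, LOW 8.4 mM and HIGH 33.6 mM, with 3 libraries in each group. Because follicle suspensions were pooled, the libraries stand for cultures of pooled cells and not for animals, and p-values measure the spread between these 9 libraries, which may be technical.

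Ribosomes are built from ribosomal RNA and a set of ribosomal proteins that cells make in nearly equal amounts. The mRNAs of these proteins are among the most abundant in growing cells and share a terminal oligopyrimidine (TOP) start, through which mTOR and the RNA-binding protein LARP1 tie their use to nutrients. Several members have a second task: RPL11 binds MDM2 and so protects p53, RPS3 takes part in DNA repair, and RPSA also serves as a laminin receptor. No sequences are shown, because the tables used here hold none.

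Levels are the authors' FPKM, fragments corrected for gene length and library size, with each library rescaled here to a common median over the genes at FPKM 1 or more in all 9 libraries. Of the members, 29 reached FPKM 0.1 in at least 3 libraries and were tested, 13 of the large and 16 of the small subunit. RPS15, a small-subunit protein, was listed at 0 in 8 libraries and at 28.0 in LOW 3, where its estimated count was 1722. RPL10L, a copy of RPL10 known from testis, was listed at 0 in all 9 libraries. Both were left untested. RPS15 is used by every cell, and a listed 0 is not evidence that the RNA was absent.

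An FPKM of 1 stood for 48.0 to 71.2 estimated fragments per kilobase of genomic span. For genes with 1 transcript these estimates restate FPKM, with introns counted in the span, and are no separate measure of read support. Members below FPKM 1 rest on few fragments. The libraries were unequal within groups in ways that touch every result here. Assembled loci without annotation took 42.4% of FPKM in HIGH 1 and 19.6% in HIGH 2, against 4.17 to 9.71% in the other 7 libraries. Of 13 granulosa markers in the table, 9 had a mean FPKM of 1 or more; CYP11A1, the enzyme that starts steroid synthesis, stood at 141 to 202, but FSHR, the receptor of follicle-stimulating hormone, at 0.228 to 0.577. Of 12 theca and stroma markers in the table, 10 reached a mean of 1, and their summed level ran from 4784 to 6879 over the CON libraries, from 5555 to 6002 over LOW and from 4670.5 to 6129.9 over HIGH. The granulosa list summed to 274 to 351, 272 to 296 and 240.1 to 258. Of 8 immune markers 2 reached a mean of 1, and none of 5 endothelial markers did. Of 3 red cell markers only ALAS2 had a row, at 0 in all 9 libraries. The hemoglobin genes HBB and HBA1 had none, so their level is not known. In bulk RNA, fewer cells of a type and less RNA per cell cannot be told apart.

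Ribosomal protein mRNAs ranked near the top of the genes with a symbol, from which small RNA genes are left out here and below. Of these 14153 genes, the 1000 with the highest mean held 26 members, and 16 of the 54 at a mean FPKM of 500 or more were members. By mean over the 9 libraries, 16 members stood at 500 or more, 9 between 100 and 500, 2 between 10 and 100 and 4 under 10. Of the 16 most abundant, 6 were large-subunit genes.

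Among the 5 highest members were RPS18, RPS19 and RPL23A. RPS18, a protein of the head of the small subunit, had 1229, 1858 and 2666 scaled FPKM in CON 1 to 3, 1671, 1941 and 1921 in LOW, and 969, 1388 and 1948 in HIGH. RPS19, in which variants cause Diamond-Blackfan anemia in people, had 1069, 1561 and 2195 in CON, 1467, 1659 and 1643 in LOW and 803, 1092 and 1629 in HIGH. In both genes CON 3 was the highest library and HIGH 1 the lowest, and the 3 groups overlapped. The group means of RPS18 for CON, LOW and HIGH were 1918 (SD 721), 1844 (SD 150.4) and 1435 (SD 491; 3 libraries per group). RPL23A, which lies near the tunnel exit of the large subunit, averaged 1569 (SD 678), 1529 (SD 162) and 1159.6 (SD 445).

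**Figure D1:**
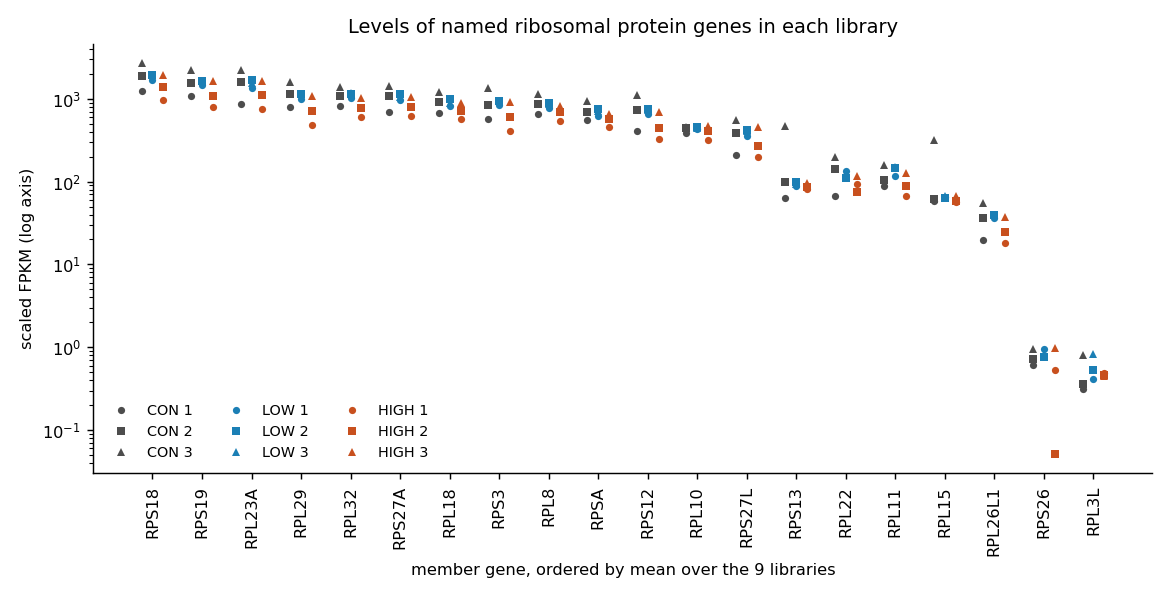
Scaled FPKM (log axis) of the tested members named in the text, ordered by their mean over 9 libraries, with colour for the glucose group and symbol for the replicate. For most members the 3 LOW symbols lie close together inside the range of the CON symbols, and RPS26 and RPL3L lie under 1 FPKM.

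Neighbours in this order often could not be separated. RPS19 exceeded RPL23A in 5 of 9 libraries, with a mean log2 gap of 0.06 (SD 0.11), and RPL32 exceeded RPS27A in 5 of 9. Clear steps between neighbours, with the upper gene above the lower in all 9 libraries and a gap over 3 times its SD, lay for example between RPS18 and RPS19 (log2 gap 0.25, SD 0.05), between RPL8 and RPSA (0.27, SD 0.04) and between RPL26L1 and RPS26 (5.48, SD 0.76). The members are alike in role, yet their levels per length spanned from 0.517 for RPL3L to 1732 for RPS18 among the members named here.

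Members that are copies of a core gene stood lower. RPL26L1, a copy of RPL26, had 19.6, 36.4 and 54.8 scaled FPKM in CON, 36.4, 39.0 and 39.6 in LOW and 18.4, 24.9 and 37.2 in HIGH. RPL3L, the muscle form of RPL3, had group means of 0.493 (SD 0.27), 0.592 (SD 0.214) and 0.467 (SD 0.0173) for CON, LOW and HIGH. In LOW versus CON, RPL26L1 differed by 0.17 on the log2 scale (p 0.638), though by -0.0118 with edgeR, and RPL3L by 0.27 (p 0.471; adjusted p 1.00 for both, limma). RPS27L, a p53 target, was the exception, at 211, 386 and 549.8 in CON, 358, 426 and 409.9 in LOW and 197, 272 and 451 in HIGH. RPL10 and RPL10L were the only pair of core gene and copy with rows for both, at a mean of 425 and 0. Ribosomal protein genes have many processed copies in mammalian genomes, and how reads with several matches were assigned is not given in the sources used here, so single levels are uncertain. RPS26, a core small-subunit gene, was listed at a mean of only 0.712.

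The main question was whether glucose moved these genes. No member passed in any comparison: with limma and Benjamini-Hochberg (BH) adjustment over all 25530 genes tested, 0 of 29 members had an adjusted p below 0.05 with an absolute log2 difference above 1 in LOW versus CON, in HIGH versus CON and in HIGH versus LOW. The background was as thin, with 0.00783% of all tested genes called in LOW versus CON, 0.00783% in HIGH versus CON and 0.00783% in HIGH versus LOW, that is 2 genes in each. The limma F test across the 3 groups called 0 of 29 members and 0.0118% of all tested genes. At an unadjusted p below 0.05, limma had 0 of 29 members in each comparison, lower or higher. Over all tested genes those shares were 0.948% lower and 0.999% higher in LOW versus CON, 2.56% and 4.02% in HIGH versus CON, and 2.44% and 5.11% in HIGH versus LOW. On the estimated counts, edgeR called 0 members and had 0 at an unadjusted p below 0.05, and DESeq2 called 0 and had 0, 0 and 2, the 2 in HIGH versus LOW, where 16.8% of all genes passed in the same fit. With the replicate number as a block in limma, 10 of 29 members were lower in HIGH than CON at an unadjusted p below 0.05 (14.5% of all tested genes). In HIGH versus LOW 12 were lower (15.7%), and in LOW versus CON 0. The lowest adjusted p of a member was then 0.303 in HIGH versus CON and 0.208 in HIGH versus LOW. With 3 libraries per side, the smallest p of an exact permutation test is 0.1. No member had CON and LOW, or CON and HIGH, libraries that did not overlap, where 3.05% of all tested genes lay apart and lower in LOW than in CON, 3.11% higher, 4.1% lower in HIGH than in CON and 5.22% higher.

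HIGH had lower mean levels than the other groups in nearly all members, without passing the test. The log2 difference of HIGH versus CON was below 0 in 28 of 29 members (43.7% of all tested genes), with a median of -0.40 and a range of -0.86 to 0.02, beside a median of 0.07 over all tested genes. For HIGH versus LOW it was below 0 in 29 of 29 (44.7% of all), with a median of -0.42 and a range of -1.02 to -0.09, beside 0.06 over all. LOW versus CON was below 0 in 11 of 29 (48.4% of all), with a median of 0.04 beside 0.01 over all, and the members' median was -0.06 with FPKM as deposited and -0.04 with edgeR. A median of -0.42 is a level ratio of 0.749. The median SE of a member's log2 difference was 0.33 (0.17 to 0.61), so differences of this size lie near 1 SE. HIGH versus CON and HIGH versus LOW share the HIGH libraries, and the members moved together across libraries, so these counts are not 29 separate observations.

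**Figure D2:**
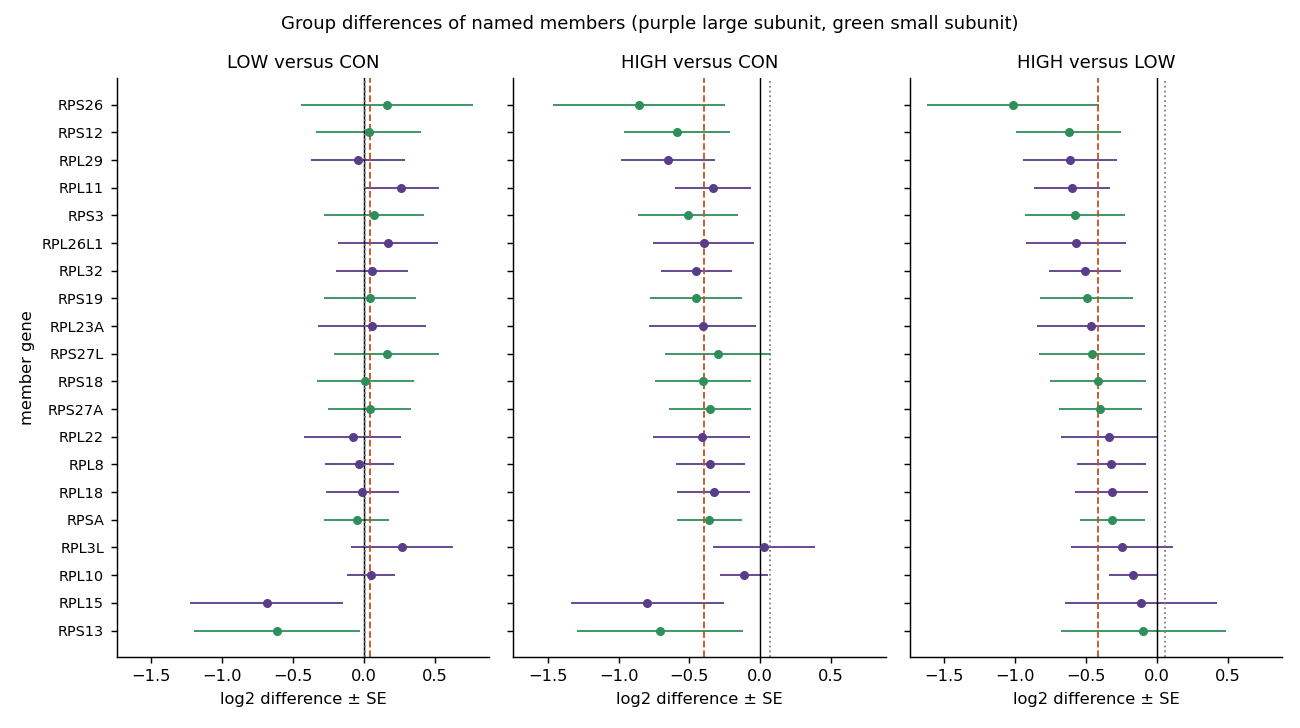
Log2 difference (first-named group minus second) of the members named in the text with the SE, in the 3 comparisons; the dashed line is the median over all 29 tested members and the dotted line the median over all tested genes. The members sit around 0 in LOW versus CON and left of 0 in HIGH versus CON and HIGH versus LOW, with medians of -0.40 and -0.42.

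The members of both subunits had medians below 0 against HIGH's 2 partners, though these medians were not tested. The median log2 difference of HIGH versus LOW was -0.34 over 13 large-subunit members and -0.44 over 16 small-subunit members, and for HIGH versus CON -0.35 and -0.41. Among the 19 tested members with a single transcript in the table, HIGH versus LOW was below 0 in 19, with a median of -0.40. The 10 members with more than 1 transcript had a median of -0.51.

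RPL11, the MDM2-binding protein, had the smallest p of all members. Its scaled FPKM was 89.1, 104 and 159 in CON, 118, 145 and 149.7 in LOW and 66.8, 87.6 and 126 in HIGH. HIGH 3 lay above LOW 1, so the groups overlapped. The log2 difference of HIGH versus LOW was -0.60 (SE 0.27), with p 0.0513 and an adjusted p of 0.640 by limma. LOW versus CON was 0.27 (p 0.345, adjusted p 1.00), but -0.0181 with edgeR and -0.0216 with DESeq2.

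RPL32 was the single member whose HIGH and LOW libraries did not overlap, where 7.68% of all tested genes were lower in HIGH without overlap and 11% higher. This large-subunit protein had 814, 1094 and 1380.0 scaled FPKM in CON, 1033, 1151 and 1162 in LOW and 609.6, 784 and 1008 in HIGH. HIGH 3, the highest of its group, lay just under LOW 1, while CON overlapped both. The log2 difference was -0.51 for HIGH versus LOW (SE 0.25, p 0.0765, adjusted p 0.640, limma) and -0.45 for HIGH versus CON (p 0.109, adjusted p 0.659).

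RPL29, a heparin-binding protein of the large subunit, had the smallest p in HIGH versus CON. Its levels were 798, 1128 and 1582 in CON, 991, 1148 and 1148 in LOW and 478, 711 and 1077 in HIGH. HIGH was lower on average, but HIGH 3 exceeded CON 1 and LOW 1. The log2 difference was -0.65 against CON (SE 0.33, p 0.0791, adjusted p 0.659, limma) and -0.61 against LOW (p 0.0970, adjusted p 0.641).

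RPS12 stood at 408, 741 and 1109.8 in CON, 654, 744 and 739 in LOW and 323, 443 and 688 in HIGH. It differed by -0.59 on the log2 scale in HIGH versus CON (SE 0.37, p 0.147, adjusted p 0.659, limma), with CON 1 below HIGH 2 and HIGH 3. RPS12 belongs to the head of the small subunit.

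Members with a second task gave the same picture. RPS3, the DNA repair factor, had 565, 839.8 and 1333 in CON, 833, 929 and 947 in LOW and 406, 601 and 902 in HIGH, and its log2 difference of HIGH versus LOW was -0.58 (SE 0.35, p 0.135, adjusted p 0.648, limma). RPSA, the laminin receptor, had group means of 734 (SD 198), 695 (SD 64.9) and 564 (SD 98.3) for CON, LOW and HIGH. RPS27A, made as a fusion with ubiquitin, averaged 1069.6 (SD 365), 1057 (SD 78.9) and 819 (SD 214). RPS19 differed by -0.49 in HIGH versus LOW (SE 0.33, adjusted p 0.658, limma). None of these 4 separated the groups.

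In CON and HIGH the libraries of the same group lay farther apart than the group means. The median scaled FPKM over members was 525, 699.8 and 947 in CON 1, 2 and 3, 639.6, 744 and 718 in LOW, and 406, 551 and 665 in HIGH. CON 1 thus lay below HIGH 2 and HIGH 3, while CON 3 was above all other libraries. CON 3 was the highest of the 9 libraries for 26 of 29 members and HIGH 1 the lowest for 25. Inside CON, CON 1 was the lowest and CON 3 the highest library for 29 of 29, and the level in CON 3 was 1.18 to 7.36 times that in CON 1 (median 2.05). In HIGH, the third library was the highest for 28 of 29, at a median of 1.74 times the first.

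LOW was the tight group. At the median over members, the SD of the log2 level was 0.52 for CON, 0.11 for LOW and 0.40 for HIGH. Over all tested genes it was 0.42, 0.21 and 0.33. The members' share of the FPKM of genes with a symbol was 6.54, 8.91 and 10.9% in CON, 8.44, 9.11 and 9.02% in LOW, and 5.605, 7.01 and 8.89% in HIGH.

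Other features of the libraries ran alongside the members inside CON and HIGH, though not in all respects across LOW. Small RNA genes took 57.7, 69.3 and 71.6% of the FPKM outside assembled loci in CON 1, 2 and 3, 71.5, 73.5 and 75.4% in LOW and 52.5, 63.0 and 73.3% in HIGH. The group mean of this share was higher in LOW than in CON (73.5 against 66.2%), while that of the member median was not (701 against 724). The median of 1331 genes that span 100000 bases or more went the other way, at 10.1, 8.30 and 6.44 FPKM in CON, 8.63, 8.02 and 8.18 in LOW and 9.90, 9.20 and 8.31 in HIGH. The median of 901 genes that span under 5000 bases, members left out, was 9.92, 11.6 and 14.2 in CON, 10.8, 12.1 and 11.6 in LOW and 9.46, 10.1 and 11.7 in HIGH. TAGLN, a smooth muscle and stroma marker, went with the members at 1355, 1969 and 2832 in CON, 1879.8, 2126 and 2042 in LOW and 921, 1392 and 2118 in HIGH. Other markers of that list took the opposite course, such as MYH11 at 6.64, 4.23 and 2.03 in CON, 4.38, 3.47 and 3.62 in LOW and 11.3, 7.13 and 4.21 in HIGH. Of the 11 tested, 4 were below 0 in HIGH versus CON, with a median log2 difference of 0.24. TAGLN and MYH11 were picked after their values were seen. The part of these features in the members' differences was not tested beyond the fits with a covariate given below.

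**Figure D3:**
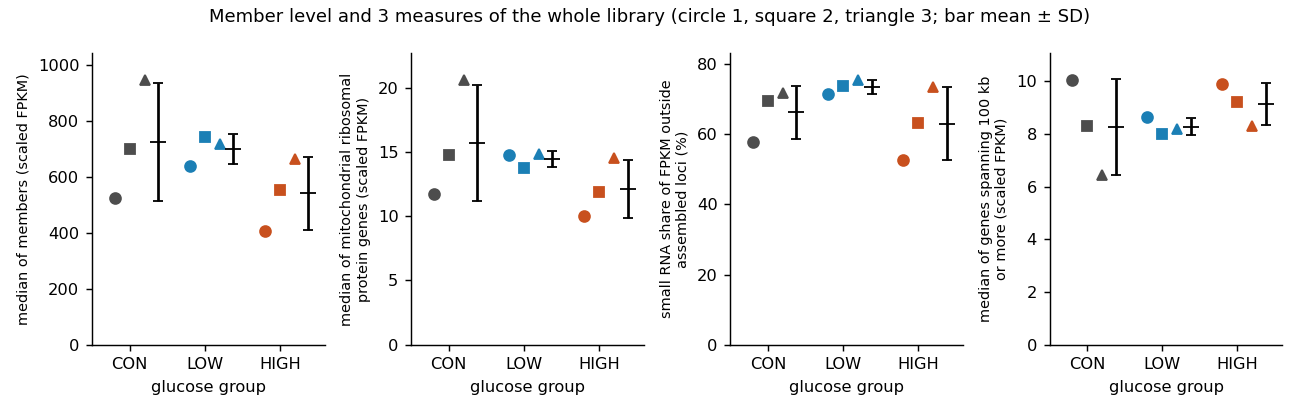
Median scaled FPKM of the 29 tested members, median of 63 mitochondrial ribosomal protein genes, percent of small RNA, and median of genes spanning 100000 bases or more, each point a library (circle 1, square 2, triangle 3) and the bar the mean ± SD of 3. CON 1 and HIGH 1 are the low ends of their groups in the first 3 panels and the high ends in the last.

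Leaving out libraries changed the unadjusted counts. Without CON 1, 21 of 29 members were lower in HIGH than in CON at an unadjusted p below 0.05 in limma, when 25.3% of all tested genes passed in either direction. The lowest adjusted p of a member was then 0.181 and the median log2 difference -0.67. Without HIGH 3 the count was 5 (13.3% of all tested genes). Without CON 3 that median was -0.12 and the count 0. For HIGH versus LOW, 9 members passed at the unadjusted level without HIGH 3 (15.7% of all tested genes), 3 without CON 1 (10.6%) and 2 without CON 3 (12.4%), neither count above the share of all genes. For LOW versus CON the median was -0.23 without CON 1, with 2 members at the unadjusted level (4.3% of all tested genes), and 0.28 without CON 3, when 0 of 29 members were below 0. No member was called at the adjusted threshold in any of these fits.

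With the small RNA share entered in the model, a fit added after seeing the data, the median of HIGH versus LOW was 0.09 in place of -0.42 and 5 of 29 members were below 0. The same fit gave -0.22 for HIGH versus CON with 6 members at an unadjusted p below 0.05 (10.5% of all tested genes), and -0.30 for LOW versus CON with 17 (10.2% of all tested genes), all lower. In both of these comparisons 28 of 29 members were below 0. With the level of the long genes as a covariate, the medians were -0.14, -0.07 and 0.09 for HIGH versus LOW, HIGH versus CON and LOW versus CON. In that fit 27, 25 and 5 of 29 members were below 0. The direction in LOW versus CON and in HIGH versus LOW thus differed between these fits.

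Members moved as a block. Measured against the member median of the same library, the SD of a member's log2 level over the 9 libraries was 0.16 at the median, compared with 0.43 for the level itself, and 18 of 29 members had a relative SD below 0.2. RPL8 and RPL18 stayed near the common course, with relative SDs of 0.05 and 0.06. Since a common course is removed by this step, the remaining values show how single members depart from it. The relative SD was not computed for other genes. Some of them, such as TAGLN, ran a like course, so this course is not shown to be particular to the members.

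RPL10, an X-linked protein of the large subunit, was the flattest member. It had 389, 440.2 and 458 scaled FPKM in CON, 429, 455 and 448 in LOW and 321, 407 and 473 in HIGH. Its SD over 9 libraries was 0.17 on the log2 scale, below the 0.21 it had relative to the member median. HIGH 3 was its highest library, whereas CON 3 was the highest of most members.

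RPS13, a small-subunit protein, departed the most upward. It had 63.3, 99.0 and 466 scaled FPKM in CON and 80.5 to 99.1 in the LOW and HIGH libraries. Only CON 3 stood apart, at 7.36 times CON 1. The gene spans 34989736 to 34994331 on chromosome 15 in the coordinates of the files, whose genome build is not given in the sources used here. In CON 3, 432 of the 466 FPKM sat on the annotated transcript of the gene, which held at most 0.132 in each of the other 8 libraries. There, the level sat on assembled transcripts across the whole span. The deposited count estimate of the gene showed no such step, at 29868 in CON 3 and 19009 to 31372 over all libraries.

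RPL15, of the large subunit, showed the same step. It had 58.2, 62.3 and 319.7 scaled FPKM in CON and 57.4 to 66.8 elsewhere. The gene spans 40548081 to 40553109 on chromosome 26. Its annotated transcript carried 287 FPKM in CON 3 and at most 0.608 in the others, with the assembled transcript at 32.5 in CON 3 against 56.9 to 66.2. The count estimate was 18742 in CON 3 and 15022 to 23084 over all libraries. The log2 differences of LOW versus CON, -0.69 for RPL15 (p 0.233) and -0.61 for RPS13 (p 0.320; adjusted p 1.00 for both, limma), were the lowest of all members. Without CON 3 they were 0.12 and 0.24.

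**Figure D4:**
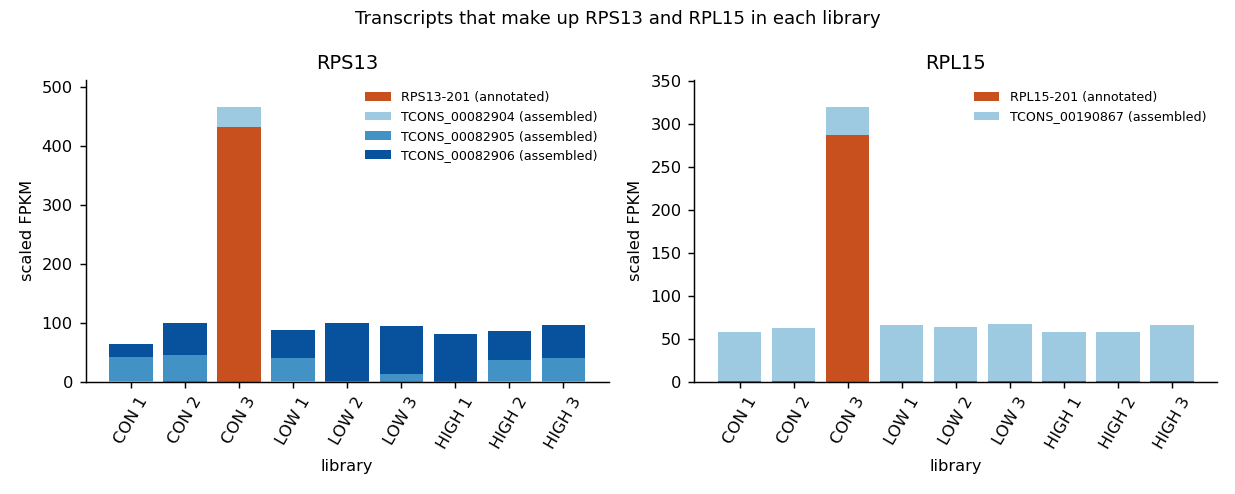
Scaled FPKM of each transcript of RPS13 and RPL15, stacked, in the 9 libraries. The annotated transcript fills most of the bar in CON 3, at 432 and 287, and almost nothing in the other 8 libraries.

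RPL22, the large-subunit protein that also binds viral RNA, had 67.8, 143 and 199 scaled FPKM in CON, 133, 109.9 and 112 in LOW and 93.3, 75.6 and 116 in HIGH. Its annotated transcript was listed at 0 in all 9 libraries, so the level was carried by 2 assembled transcripts. LOW versus CON was -0.08 on the log2 scale (SE 0.34, adjusted p 1.00, limma), but 0.26 without CON 3. RPS26 had 0.603, 0.724 and 0.957 in CON, 0.957, 0.766 and 0.835 in LOW and 0.524, 0.0519 and 0.989 in HIGH. The low value in HIGH 2 rests on an estimated count of 2, and its difference of -1.02 in HIGH versus LOW (SE 0.61, p 0.127, adjusted p 0.643, limma) was the lowest of all members.

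**Figure D5:**
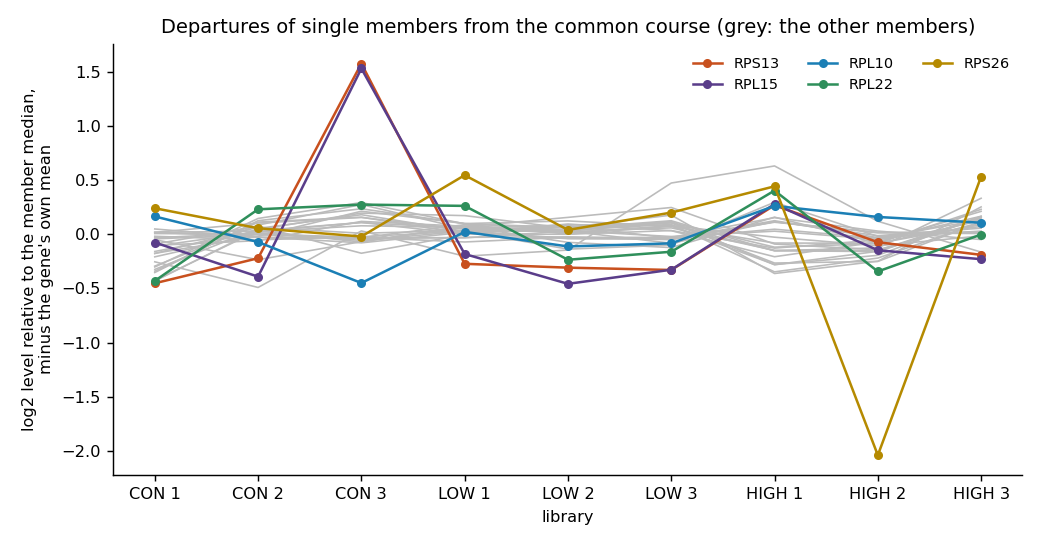
Log2 level of each tested member relative to the member median of the library, minus the gene's own mean, across the 9 libraries. RPS13 and RPL15 rise above the common course in CON 3, RPS26 drops in HIGH 2, and RPL10 lies low in CON 3.

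Other parts of the translation machinery were read from lists of known genes. Of the proteins joined to or seated on the ribosome without an RPL or RPS symbol, 3 were tested and 0 called. FAU, a fusion that yields a small-subunit protein, had 307, 467 and 716 scaled FPKM in CON, 459, 444 and 506 in LOW and 211, 303 and 399 in HIGH, with a log2 difference of HIGH versus LOW of -0.67 (SE 0.32, p 0.0626, adjusted p 0.640, limma). RACK1, a signalling scaffold on the small subunit, differed by -0.22 (p 0.304).

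Of 11 tested genes with TOP mRNAs or translation elongation roles, 0 were called in any comparison, and the median log2 difference was -0.25 in HIGH versus CON and -0.24 in HIGH versus LOW. EEF2, the elongation factor that moves the ribosome along, differed by -0.13 in HIGH versus LOW (p 0.522). EIF3H, an initiation factor subunit, differed by -0.26 in HIGH versus CON (SE 0.10, p 0.0217, adjusted p 0.659, limma). HNRNPA1, an RNA-binding protein, differed by 1.30 in LOW versus CON (p 0.0483, adjusted p 1.00, limma).

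Ribosome biogenesis genes, 34 tested, had a median of -0.16 in HIGH versus CON and -0.19 in HIGH versus LOW, with 0 called. In HIGH versus LOW, 2 were lower and 1 higher at an unadjusted p below 0.05 (2.44% and 5.11% of all tested genes). In HIGH versus CON 2 were lower (2.56% of all tested genes). NOP58, a core protein of the machinery that methylates ribosomal RNA, differed by -0.37 in HIGH versus CON (SE 0.12, p 0.0158, adjusted p 0.659, limma), and NOP10, of the pseudouridine machinery, by -0.74 (p 0.0239). Of 16 regulators of ribosome supply, 0 were called and 3 were higher in HIGH than LOW at an unadjusted p below 0.05 (5.11% of all tested genes). These were TSC2, a brake on mTOR (0.74, SE 0.24, p 0.0119, adjusted p 0.613, limma), LARP1 (0.49, p 0.0339) and MTOR (0.56, p 0.0348). Their levels fell from HIGH 1 to HIGH 3, at 8.25, 5.59 and 3.94 scaled FPKM for TSC2, 31.5, 26.5 and 19.4 for LARP1 and 17.0, 13.2 and 10.3 for MTOR. They also fell from CON 1 to CON 3, at 4.03, 3.76 and 3.40 for TSC2. In the same CON libraries LARP1 stood at 23.6, 20.3 and 16.1 and MTOR at 12.1, 10.0 and 7.09. MYC, which drives ribosome production, differed by 0.28 (p 0.114). Of 12 initiation factors, 0 were called, with a median of -0.05 in HIGH versus LOW. EIF4G1, the scaffold of the cap complex, was highest of the list at 1.02 (SE 0.29, p 0.00681, adjusted p 0.613, limma), and EIF2S2 differed by 0.49 in LOW versus CON (p 0.0174, adjusted p 1.00).

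Mitochondrial ribosomal protein genes, which serve another ribosome, also had their low ends in CON 1 and HIGH 1. Their median over 63 tested genes was 11.8, 14.8 and 20.6 scaled FPKM in CON, 14.8, 13.7 and 14.8 in LOW and 10.0, 11.9 and 14.5 in HIGH. The median log2 difference was -0.30 in HIGH versus CON, with 57 of 63 below 0, and -0.31 in HIGH versus LOW, with 54 below 0; 0 were called. MRPS25 had the smallest p, with -0.87 in HIGH versus LOW (SE 0.25, p 0.00718, adjusted p 0.613, limma), and MRPS9 differed by -0.40 in HIGH versus CON (p 0.0321).

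TXNIP, a gene known to be induced by glucose, had 68.5, 88.7 and 105 scaled FPKM in CON, 213, 226 and 233 in LOW and 179, 205 and 216 in HIGH. It did not overlap between CON and the glucose groups, with log2 differences of 1.38 (p 1.44e-05, adjusted p 0.123, limma) and 1.21 (p 4.05e-05, adjusted p 0.179), yet it also missed the adjusted threshold. Its SE of 0.17 was near that of RPL10, the tightest member.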

How the data were processed

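RNA of 9 libraries, 3 per group by GEO's labels, was depleted of ribosomal RNA, made into libraries with a kit not stated to mark strand, and sequenced in pairs. The authors aligned clean reads with Hisat2, assembled them with Stringtie and deposited FPKM per gene and transcript. Their methods name HTSeq 0.6.0 for counts, and the submitters' processing notes also list TopHat and STAR 2.5.1b without a role. The gene counts deposited by the authors equal FPKM times genomic span times a factor per library where a gene has 1 transcript, so each was taken as an estimated count, rounded, and used in alternatives only.

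Libraries were scaled on the median of genes with FPKM of 1 or more in each, and log2(FPKM + 0.1) was fitted with limma (version 3.58.1, R 4.3.3, trend on mean level) over the 3 groups, for genes reaching FPKM 0.1 in 3 libraries or more. Fold changes are on the log2(FPKM + 0.1) scale, which understates those of low genes. BH adjustment ran over all 25530 genes. A call needed an adjusted p below 0.05 and an absolute log2 difference above 1. edgeR (4.0.16) and DESeq2 (1.42.0, the 2 groups compared) were alternatives, as were other scalings, filters and covariates. The limma, edgeR and DESeq2 fits were tested on simulated data that held no shift shared by the genes of a library. The other scalings, filters and covariates were not tested in this way.

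Named members are the 5 highest and 5 lowest by mean, the 3 with the smallest p in each direction and comparison, core genes with their copies, and those with a second role. From each other list the 2 genes with the smallest p are named, besides a few well-known regulators such as MYC and TXNIP. Members named for their spread or transcripts were chosen after their values were seen. Some members and genes of other lists that the rule names are not reported here. Members and lists were chosen with earlier results of these data known. The counts per transcript were not used. 0 columns were left without a sample.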

Additional observations from a re-analysis of the deposited data

Results flagged for a closer look

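None of these values enters a test of the report. Signals outside the tested gene levels, at FPKM 10 or more and at least 4 times the highest CON library, appeared at 3 places. The assembled transcript TCONS_00148377 of RPL11 stood at 21.95 in LOW 2 and at 19.8 in HIGH 3, and TCONS_00051825 of RPL22 at 66.9 in HIGH 1. The untested gene RPS15 was listed at 28.0 in LOW 3. The RPL11 transcript also stood at 17.0 in LOW 3, short of the rule. With 3 libraries per group, single values were listed by this rule only, and no test for outlying values was made.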

How the results depend on the processing

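With 3 libraries a group and a median SE of 0.33, differences of the size seen here could not be told from 0. The count of called members stayed at 0 in the 3 comparisons and the F test under every alternative run. Over all tested genes limma and edgeR called 2 in each comparison, and DESeq2 80, 134 and 302 in LOW versus CON, HIGH versus CON and HIGH versus LOW; the other alternatives called 0 to 8. RPS26 and RPL3L have no value where FPKM 1 in 3 libraries was asked, and the F test none in fits of 2 groups. Counts at an unadjusted p below 0.05, all 0 of 29 as reported, are given with the share of all tested genes that passed in the same fit. For LOW versus CON they were 17 with the small RNA share as covariate (10.2%), 1 with the level of long genes (6.64%) and 0 to 2 with each library left out. For HIGH versus CON they were 2 with FPKM as deposited (8.04%), 10 with the replicate block (14.5%), 6 with the small RNA share (10.5%) and 0 to 21 with each library left out. For HIGH versus LOW they were 1 with FPKM as deposited (7.56%), 2 scaled on summed FPKM (7.99%), 1 with genes with a symbol only (9.88%), 3 with the 2 groups compared (13.3%), 12 with the replicate block (15.7%), 2 with DESeq2 (16.8%), 2 with the level of long genes (13.2%) and 0 to 9 with each library left out. Deviations of same-numbered libraries from their group means correlated from -0.0266 to 0.415 (4 of 9 pairs above 0.1, all 3 pairs of replicate 1 among them). Not every pair was above 0.1, and LOW 2 correlated better with CON 3 than with CON 2. No label ties a number to a shared batch, so the numbers were not used as pairs in the main fit. Among the members the numbers did line up in part. Replicate 1 was the lowest of its group for 29 of 29 in CON, 25 in LOW and 26 in HIGH. The replicate block left the calls at 0. The member median was lower in HIGH than in the same-numbered CON and LOW libraries for each of the 3 numbers. Medians moved to -0.30 (LOW versus CON) and 0.0922 (HIGH versus LOW) with the small RNA share. The cause was not tested.

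Signs turned in LOW versus CON for RPL11 (-0.0181 with edgeR, -0.0216 with DESeq2, -0.0681 with the small RNA share), RPL15 (0.0620 with edgeR, 0.0562 with DESeq2), and RPL26L1 (-0.0118 with edgeR, -0.0128 with DESeq2, -0.30 with the small RNA share). With single libraries left out RPL15 ranged from -1.11 to 0.12, RPL22 from -0.52 to 0.26, RPS13 from -1.20 to 0.24 and RPL26L1 from -0.22 to 0.52. RPL3L in HIGH versus CON turned to -0.0110 with pseudocount 1, -0.00781 with FPKM as deposited, -0.16 with edgeR and -0.16 with DESeq2, and ranged from -0.19 to 0.37 with libraries left out.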

Other observations

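Ribosomal protein genes often carry small nucleolar RNAs in their introns, RNAs that guide the chemical marking of ribosomal RNA. In the gene table, 8 of the 31 members (25.8%) had a small RNA gene within their span, against 5.1% of the 14153 genes with a symbol and 1.01% of the 4071 of those that span under 10000 bases. The members were not held to this limit, and RPSA, a host, spans 11803 bases and RPL11 23348. The small RNA genes within members, looked at after the members' values were seen, numbered 16 and are known by Rfam family. Not each of the 16 need be a small nucleolar RNA, as their kind was not checked. RPS12 held 4, RPL23A 3, and RPS3, RPS13 and RPSA 2 each, while RPL10 held 1. Their levels were low, at 0.336 to 13.6 scaled FPKM over spans of 68 to 151 bases, so each rests on few fragments, and without strand information they cannot be told apart from unspliced RNA of the host.

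The 8 hosts stood at a median of 2.198 times in CON 3 over CON 1 and 1.79 times in HIGH 3 over HIGH 1, whereas the 16 small RNA genes had medians of 1.195 (0.411 to 2.69) and 1.03 (0.486 to 3.51). In HIGH versus LOW their median log2 difference was -0.03, with 8 of 16 above 0, and limma called 0 of them (lowest adjusted p 0.640). At an unadjusted p below 0.05, 1 passed, lower in HIGH, where 7.56% of all tested genes passed in either direction. In HIGH versus CON the median was -0.10, with a lowest adjusted p of 0.659 by limma. There 2 passed at the unadjusted level, each lower in HIGH, beside 6.58% of all tested genes. The difference between hosts and small RNAs was not tested.

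No granulosa, theca and stroma, immune or endothelial marker was called by limma. At an unadjusted p below 0.05 in HIGH versus CON, 3 of 12 granulosa and 2 of 7 immune markers were lower (2.56% of all tested genes). In the same comparison 3 of 11 theca and stroma markers were higher (4.02% of all tested genes). COL1A1, a stromal collagen, had the smallest p of its list, with 31.5, 28.1 and 16.1 scaled FPKM in CON, 27.7, 23.5 and 24.4 in LOW and 126, 72.7 and 38.8 in HIGH (log2 difference 1.54 versus CON, p 0.00319, adjusted p 0.659, limma), so that it stood highest in HIGH 1, where the ribosomal protein genes were lowest. STAR, which brings cholesterol into mitochondria for steroid synthesis, differed by -0.56 in HIGH versus CON (p 0.00868, adjusted p 0.659, limma), and CYP11A1 by -0.33 (p 0.0239). Of the 12 tested granulosa markers, 9 were below 0 in HIGH versus CON (median -0.13) and 7 in HIGH versus LOW (median -0.07). GATA4 went the other way, at 0.45 against CON (p 0.129) and 0.71 against LOW (p 0.0267, adjusted p 0.635, limma). COL1A2, the partner chain of COL1A1, differed by 0.80 in HIGH versus LOW (p 0.00724, adjusted p 0.613, limma). The macrophage genes AIF1 and CD68 differed by -1.73 in HIGH versus LOW (p 0.00932, adjusted p 0.613) and by -0.52 in HIGH versus CON (p 0.0109, adjusted p 0.659), and TEK, an endothelial receptor, by 0.22 in HIGH versus LOW (p 0.427). AIF1 was low, at 0.669, 1.17 and 0.743 scaled FPKM in LOW and 0.254, 0.230 and 0.0939 in HIGH. CD163 and PTPRC stayed under 1 in each library, so these values rest on few fragments. The other 5 of the 7 tested immune markers were above 0 in both comparisons, among them CD163 (0.68 against CON, 0.84 against LOW) and PTPRC (1.05 and 0.38), none at an unadjusted p below 0.05, and the median of the list was 0.11 against CON and 0.10 against LOW.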
